A study of Mus musculus with 170 samples.

Results

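Myl2, Myl3, Myl4, Myl7, Tnni3, Tnnt2, Actc1, Myh6, Csrp3 and Sln are genes of cardiac muscle, and their RNA was followed here in the hearts and lungs of mice given wildfire smoke particles. The 10 genes were chosen by name, and every row of the count table whose symbol matched was summed per gene. The count table held 18 probe rows for 9 of the 10 genes, out of 30146 probe rows and 21450 gene symbols in all. Sln, which encodes the calcium pump inhibitor sarcolipin, was not analysed here. The number of members with values is therefore 9 in every comparison below. A level is given in CPM, the usual unit that scales a gene's counts to the total counts of its library. Each probe has its own capture efficiency, so levels are compared between samples and not between genes.

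The animals were female mice of the outbred CD-1 stock, with no age stated in the labels. Each received 50 µL of saline into the airways by oropharyngeal aspiration, a technique in which liquid placed at the back of the throat is inhaled. The smoke groups received particulate matter at 2 mg/mL in that saline, from 5 fuels (eucalyptus, pine, pine needles, peat and red oak) burned in a flaming or a smoldering phase, which gave 10 smokes that are written here as in the labels (RedOakFlame, PeatSmolder and so on). The controls were saline alone and LPS, the bacterial endotoxin lipopolysaccharide. Lungs were collected 4 h or 24 h later, from 6 animals per smoke and saline group and from 4 per LPS group, which gave 140 lung libraries in 24 groups. Hearts were taken at 24 h from the saline, RedOakFlame, RedOakSmolder, PeatFlame and PeatSmolder animals, 6 per group and 30 in all, and the lungs of the same 30 animals were among those measured. The labels name the organs only, without the lung lobe or heart chamber.

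Cardiac muscle shortens when myosin filaments, built of heavy chains such as the product of Myh6 and of light chains, pull on actin filaments, whose cardiac actin is made from Actc1. Troponin on the actin filament, with its subunits from Tnni3 and Tnnt2, switches the pull on when calcium rises. Atria and ventricles use different light chains: Myl7 and Myl4 encode the regulatory and essential light chains of atrial muscle, and Myl2 and Myl3 those of ventricular muscle. In mice, cardiac muscle also continues from the left atrium along the pulmonary veins into the lung, where it forms a sleeve around the larger veins.

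The promoters of the atrial light chains Myl7 and Myl4 are shown because these 2 genes, alone among the 9, were higher in lung than in heart in the saline animals. The sequences come from RefSeq on build GRCm38.p6, the 250 bases before the annotated start of transcription. Myl7 lies on the reverse strand of chromosome 11 (window chr11:5898783-5899032) and Myl4 on the forward strand of the same chromosome (chr11:104550413-104550662). The other genes lie on chromosomes 1 (Tnnt2), 2 (Actc1), 5 (Myl2), 7 (Tnni3 and Csrp3), 9 (Myl3) and 14 (Myh6). Capitals mark matches to the motifs searched, and Myl4 had none.
Myl7: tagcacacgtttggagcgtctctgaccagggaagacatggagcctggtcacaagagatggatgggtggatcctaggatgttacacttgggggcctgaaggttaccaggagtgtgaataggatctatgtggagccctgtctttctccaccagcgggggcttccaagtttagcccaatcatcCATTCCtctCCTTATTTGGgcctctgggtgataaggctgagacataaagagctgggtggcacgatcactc
Myl4: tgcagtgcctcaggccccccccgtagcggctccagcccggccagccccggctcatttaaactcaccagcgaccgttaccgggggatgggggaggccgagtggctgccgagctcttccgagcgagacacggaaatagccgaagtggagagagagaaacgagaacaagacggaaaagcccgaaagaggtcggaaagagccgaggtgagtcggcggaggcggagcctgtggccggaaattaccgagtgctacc
Both strands of every window were searched for AGATAA (a zinc finger factor site), TNAAGTG (a homeobox factor site), CATTCC (a site of TEA domain factors), the MEF2 site and the CArG box, which serum response factor binds. In the Myl7 window the capitals are CATTCC, 70 to 65 bases before the start, and the CArG box CCTTATTTGG, 61 to 52 bases before it. CArG boxes also stood before Actc1 (CCAAATAAGG, 47 to 38 bases before the start) and Myl3 (CCTTTTATGG, 85 to 76 bases before it). The promoter table matched 9 of the 10 genes with 12 windows, because some genes have more than 1 start. A CArG box was in the windows of 3 of these 9 genes and in 1.47% of 32851 promoters of the same length. CATTCC was found for 4 genes (12.6% of all promoters), AGATAA for 2 (9.99%), TNAAGTG for 1 (10.1%) and the MEF2 site for 0 (2.92%). One AGATAA match was in a window of Myl2. The 2 Myl2 windows lay 8227 and 7762 bases from the nearest protein-coding start in the GENCODE annotation, so they may not cover the promoter in use. These are letter matches in a short window, and no binding was measured.

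The libraries held 4.43 M to 8.05 M counts each. All hearts were processed on plate 2, and the lungs were split over plate 1 (82 libraries) and plate 2 (58 libraries), which the lung tests included as a term. The labelled tissues carried their defining transcripts: Sftpc, a surfactant protein gene of the alveolar epithelium, had a median of 4657 CPM in lung and 2.19 CPM in heart, and Pln, the phospholamban gene of cardiac muscle, had 2.11 CPM in lung and 5830 CPM in heart. Of 15 skeletal muscle markers, the fast myosin heavy chain genes Myh2 and Myh4 had medians of 0 CPM in both tissues, while Acta1, the skeletal actin gene, had 34.2 CPM in lung and 2121 CPM in heart and Mylpf, a fast light chain gene, 3.05 and 5.59 CPM. The summed level of the 15 was 9.94 to 103.9 CPM in lung and 670 to 5279 CPM in heart. In 6 lung libraries, all taken at 24 h and on plate 2, fewer than 13000 genes had a count. These were PineSmolder replicate 4, EucalyptusSmolder replicate 5, RedOakFlame replicate 6, PeatFlame replicate 3, PineFlame replicate 6 and EucalyptusFlame replicate 5. In those 6 libraries Myl7 ran from 0 to 12.9 CPM and Tnnt2 from 34.8 to 265 CPM.

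The first comparison set the 6 saline hearts against the lungs of the same 6 animals at 24 h. Of the 9 genes, 7 were higher in heart, by far the most for the ventricular light chains, and the 2 atrial light chain genes were higher in lung. No value of the heart overlapped a value of the lung for any of the 9. The share of all genes without such an overlap is not given here. Between tissues 76.5% of all 11821 genes tested were called at an adjusted p under 0.05 (edgeR quasi-likelihood F test with Benjamini-Hochberg adjustment, the test and threshold used throughout), so that being called is the usual outcome and the direction and size carry the description. In a bulk tissue, fewer cells of a type and less RNA per cell cannot be told apart.

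Myl2, the ventricular regulatory light chain, had 7435 to 9852 CPM in the saline hearts and 0.484 to 2.56 CPM in the lungs. On the log2 scale the difference of heart minus lung was 13.84 ± 0.45 (SE, n = 6 per tissue, edgeR adjusted p = 3.07e-11). Myl3, the ventricular essential light chain, had 6405 to 10068 CPM in heart and 1.94 to 13.05 CPM in lung, a log2 difference of 11.29 ± 0.54. Both genes were close to the counting limit in lung. Over all 140 lungs the median count was 4 for Myl2 and 21 for Myl3, and Myl2 had no count in 10 libraries, where the limit of 3 counts allows 0.373 to 0.678 CPM in a lung library.

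The troponin subunits differed less. Tnni3, cardiac troponin I, had 8056 to 10951 CPM in heart and 23.8 to 72.4 CPM in lung, a log2 difference of 8.42 ± 0.38. Tnnt2, cardiac troponin T, had 4773 to 6630 CPM in heart and 27.4 to 198 CPM in lung, with a log2 difference of 6.52 ± 0.55. Of all the members with a higher level in heart, the remaining 3 had log2 differences near 6. These were Csrp3, a muscle LIM protein of the Z-disc (6.26 ± 0.37, 4198 to 6523 against 47.1 to 162 CPM), Myh6, the alpha myosin heavy chain that mouse atria and ventricles share (6.01 ± 0.40, 1885 to 3889 against 32.05 to 113.95 CPM), and Actc1 (5.93 ± 0.43, 9761 to 14712 against 96.3 to 418 CPM).

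Myl4 had 128.998 to 325 CPM in the saline lungs and 7.74 to 20.9 CPM in the hearts of the same animals. In the fit, which scales libraries beyond their totals, it was 11.7-fold higher in lung (log2 difference of heart minus lung -3.54 ± 0.33, edgeR adjusted p = 1.91e-07). Myl7 had 14.2 to 126.3 CPM in lung and 1.39 to 7.77 CPM in heart. It was 9.91-fold higher in lung (log2 difference -3.31 ± 0.48, edgeR adjusted p = 1.67e-05). All 6 saline lungs lay above all 6 saline hearts for both genes. All 9 calls held with the animal as a replicate block and with each animal left out in turn.

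**Figure D1:**
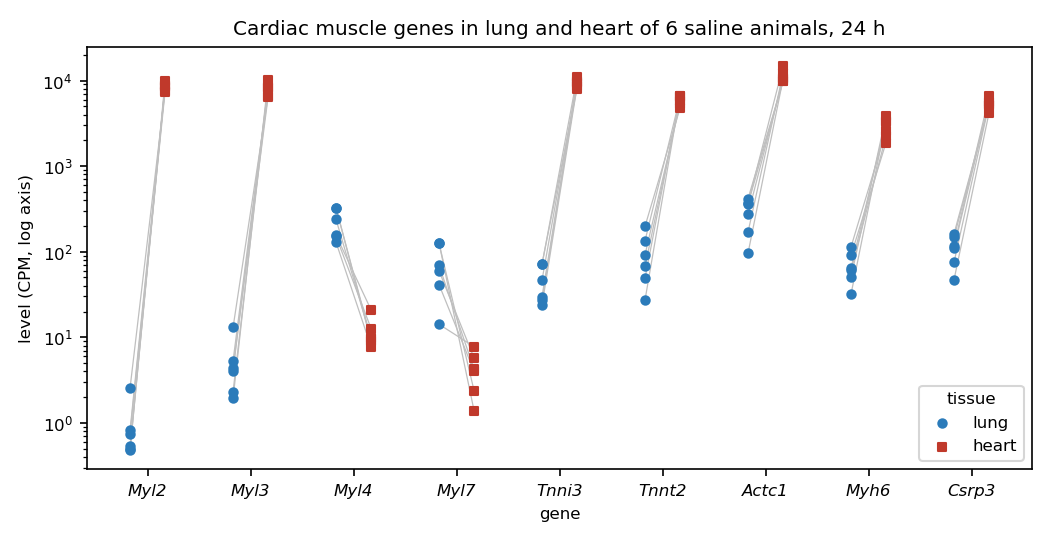
CPM on a log axis of the 9 genes in the lungs (blue circles) and hearts (red squares) of the 6 saline animals at 24 h, with a grey line joining the organs of 1 animal. The lines climb from lung to heart for 7 genes and descend for Myl4 and Myl7, and the organs overlap for none.

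The ratio of the atrial to the ventricular regulatory light chain, Myl7 to Myl2, compares 2 genes within a library. As log2 of (Myl7 CPM + 1) over (Myl2 CPM + 1) it was 5.01 ± 1.19 in the saline lungs and -10.8 ± 0.71 in the saline hearts (SD, n = 6 each). The difference was 15.8 (exact two-sided permutation test, p = 0.00216, the smallest that 924 regroupings allow), and it was 17.2 with a pseudocount of 0.1 CPM and 17.04 from counts with 1 added. That test leaves out the pairing of the organs by animal. Exact sign flips within animals gave p = 0.0312, the smallest that 64 flips allow. Myl7 and Myl2 each separated the organs without overlap, in opposite directions. Both p values were thus fixed at their smallest and add nothing to the values of the 2 genes. Over all libraries this ratio had a median of 5.44 in lung (-2.28 to 8.28) and of -10.5 in heart (-12.0 to 0.054).

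Other cardiac genes were examined with lists. These lists, like the members, were chosen with earlier results of these data known. All 20 other sarcomere and Z-disc genes were called between heart and lung, 19 higher in heart and 1 lower (median log2 difference 5.47). Actn2, the Z-disc actinin, was higher by 6.22 ± 0.46 on the log2 scale, and Tnnc1, the calcium-binding troponin subunit, by 7.71 ± 0.50. Myh7, the slow myosin heavy chain, was only higher by 0.85 ± 0.33. Its CPM overlapped between the organs (87.4 ± 43.7 in heart and 77.9 ± 28.7 in lung, SD). All 12 calcium handling genes tested and all 11 energy genes tested were higher in heart. The atrial list was mixed, with 3 of 10 genes higher in heart, 7 lower and a median of -1.31. Nppa, the natriuretic peptide gene that atria express most, was higher in heart by 5.10 ± 0.57, opposite to Myl4 and Myl7. In lung Nppa had a median of 1.07 CPM, and Nkx2-5, a cardiac transcription factor gene, was at 0 in 79 of the 140 lungs. The heart median of Nkx2-5 was 17.3 CPM. Tbx5, on the same list of transcription factors, went the other way, with a median of 32.9 CPM in lung and 9.16 CPM in heart.

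Across all exposures the order of the organs was complete for the 7 genes higher in heart, and not for Myl4 and Myl7. For Myl2, Myl3, Tnni3, Tnnt2, Actc1, Myh6 and Csrp3, 140 of 140 lungs lay below every one of the 30 hearts. No share of all genes separated in this way is given beside that count. The heart median exceeded the lung median 11883-fold for Myl2, 2354-fold for Myl3, 256-fold for Tnni3, 135.5-fold for Tnnt2, 77.2-fold for Myh6, 61.9-fold for Actc1 and 48.6-fold for Csrp3. For Myl4 the lung median of 146 CPM was 13.9 times the heart median of 10.5 CPM, and all but 3 of the 140 lungs lay above the heart median. For Myl7 the lung median of 70.6 CPM was 17.6 times the heart median of 4.00 CPM, and all but 7 of the 140 lungs lay above it. For both genes 0 of the 140 lungs lay above every heart. In 7 of the 30 hearts Myl7 ran from 624.7 to 5042 CPM, above the highest lung at 487 CPM. Together the 9 genes took 4.26 to 5.52% of a heart library's counts (median 4.89%) and 0.0116 to 0.258% of a lung library's (median 0.0647%).

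The 2 probes of a gene did not always split its counts alike in both organs. Of the Actc1 counts, one probe took 55.9% in lung and 21.9% in heart, and the other took 44.1% and 78.1%. Tested alone, these probes gave log2 differences of heart minus lung of 4.16 and 7.34. The 2 probes of Myl4 gave -4.97 and -1.97, so both were higher in lung but by different amounts. For Tnnt2 the values were 7.97 and 5.40. Fold differences between the organs are therefore values of these probe sets, while the direction was the same for every probe of a gene.

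Among the 30 hearts, Myl4 and Myl7 did not vary around 1 level but fell into 2 separate sets. In 23 hearts Myl7 ran from 0.69 to 7.77 CPM (median 3.21) and Myl4 from 5.16 to 20.9 CPM (median 9.37). In the other 7 hearts Myl7 ran from 624.7 to 5042 CPM (median 1510) and Myl4 from 331 to 5791 CPM (median 874). Both genes separated the same 7 hearts, and no heart lay between the sets. This split was seen in the data and is not a group of the study.

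The 6 saline hearts were all in the low set. Their Myl4 values were 8.96, 20.9, 12.7, 9.52, 9.70 and 7.74 CPM, and their Myl7 values were 1.39, 7.77, 4.02, 5.74, 2.38 and 4.22 CPM, in replicate order. Of the RedOakFlame hearts 1 of 6 was in the high set, replicate 2, with 5791 CPM of Myl4 and 4908 CPM of Myl7. Of the RedOakSmolder hearts 1 of 6 was, replicate 4, with 786 and 1043 CPM. Among the PeatFlame hearts there were 3, replicate 1 with 331 and 624.7 CPM, replicate 2 with 874 and 1510 CPM and replicate 4 with 1232 and 2153 CPM. Among the PeatSmolder hearts there were 2, replicate 3 with 2181 and 5042 CPM and replicate 4 with 575 and 686 CPM. Every smoke group thus contained at least 1 such heart and at least 3 hearts in the low range.

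**Figure D2:**
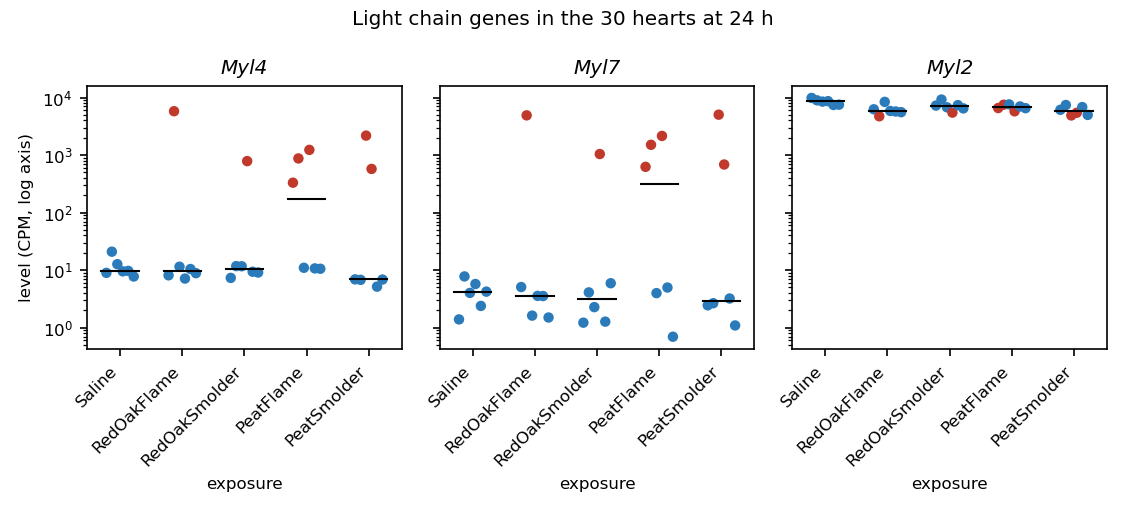
CPM on a log axis of Myl4, Myl7 and Myl2 in each of the 30 hearts by exposure, with hearts above 100 CPM of Myl7 in red, the others in blue and the group median as a black bar. The 7 red hearts stand far above the rest for Myl4 and Myl7. For Myl2 they lie between 4727 and 7507 CPM, and the 2 lowest of all 30 hearts are among them.

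The differences from saline in mean level were large but carried errors to match. Fitted log2 changes of Myl7 were 5.17 to 7.63 in the 4 smoke groups with standard errors of 2.61 to 2.83, and those of Myl4 were 3.399 to 6.07 with standard errors of 1.99 to 2.20. None of the 8 was called in edgeR. The adjusted p was smallest for RedOakFlame (Myl4 0.0695, Myl7 0.0886), followed by PeatSmolder (0.161 and 0.121), PeatFlame (0.374 and 0.354) and RedOakSmolder (0.837 and 0.809), all from edgeR. DESeq2 called both genes for RedOakFlame and PeatSmolder and Myl7 for PeatFlame. Without the 7 hearts, an alternative added after the values were seen, the log2 changes turned to -0.53 to -0.96 for Myl7 and to -0.24 to -0.98 for Myl4. Those hearts were picked by their high Myl7 and all were in smoke groups, so a lower change without them was fixed by the choice. The refit therefore cannot show whether the other smoke hearts differed from saline in these 2 genes.

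Within the 7 hearts Myl4 and Myl7 varied together (Pearson r = 0.934, Spearman rho = 0.964, permutation p = 0.0004 for r, and r = 0.994 without the 2 hearts farthest from the median). Within the 23 hearts they did so less clearly (r = 0.33, rho = 0.27, permutation p = 0.128). The lungs of the same animals did not show the split. In the 7 animals the lung and heart levels of Myl4 had r = 0.038 and those of Myl7 r = 0.356, with permutation p = 0.940 and 0.440. The genes with the profile most like the mean of Myl4 and Myl7 over the 30 hearts, by Pearson r of log2(CPM + 1), were Mybphl (0.99), Cilp2 (0.98), Dkk3 (0.97), Mlana (0.95), Sbk3 (0.93), Stard10 (0.89), Sds (0.88), Pam (0.86), Gdf7 (0.85), Chad (0.84), Comp (0.84) and Nppa (0.83). With levels in 2 sets these r values mainly describe the same 7 hearts. Mybphl, a myosin-binding protein gene, ran from 0 to 241 CPM over the hearts. Nppa was highest in RedOakFlame replicate 2 (1196 CPM) and PeatSmolder replicate 3 (1160 CPM), and ran from 52.99 to 110.5 CPM in the saline hearts. Bmp10, a growth factor gene of the atria, was at 0 in 21 of 30 hearts and reached 187 CPM. Irx4, a ventricular transcription factor gene, was at 0 in 26 of 30 hearts, so that it cannot serve as a check on the chamber.

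The ventricular and shared genes varied less between hearts, and 3 of them passed the test after a smoke. In PeatSmolder hearts Myl2 and Csrp3 fell, and in RedOakFlame hearts Myl2 and Myl3 fell. The changes were below 1 on the log2 scale. PeatFlame and RedOakSmolder hearts had no member called. All 4 comparisons share the same 6 saline hearts.

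The saline hearts had 9852, 8948, 8505, 8665, 7435 and 7522 CPM of Myl2, in replicate order. PeatSmolder hearts had 6129, 7429, 4892, 5447, 6838 and 4992 CPM. All 6 lay below every saline heart, although the highest came close to the lowest saline heart. The means were 5954 ± 1030 and 8488 ± 911 CPM (SD, n = 6 each), and the log2 change was -0.65 ± 0.16 (SE, edgeR adjusted p = 0.018). Csrp3 had 5600, 6523, 5310, 5237, 5143 and 4198 CPM in the saline hearts and 3434, 4554, 3558, 3646, 3810 and 3595 CPM in the PeatSmolder hearts. Here 5 of 6 lay below every saline heart, and replicate 2 lay above the lowest. The means were 3766 ± 405 and 5335 ± 751 CPM, and Csrp3 fell by 0.64 ± 0.15 on the log2 scale (edgeR adjusted p = 0.0153). Of all 11179 genes tested in heart 4.29% were called in this comparison, against 2 of the 9 members. Without PeatSmolder replicate 3, PeatSmolder replicate 4 or saline replicate 1, Myl2 was not called (adjusted p 0.0598, 0.0523 and 0.0559) and Csrp3 was the only member called.

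RedOakFlame hearts had 6252, 4727, 8412, 5852, 5730 and 5575 CPM of Myl2. In this group 5 of 6 lay below every saline heart, and replicate 3 lay within the saline range. The mean was 6091 ± 1243 CPM and the log2 change -0.66 ± 0.16 (edgeR adjusted p = 0.0073). Myl3 had 10068, 8073, 6405, 8297, 6544 and 8198 CPM in the saline hearts and 6323, 3322, 5639, 6445, 7207 and 6367 CPM in the RedOakFlame hearts, where 4 of 6 lay below every saline heart. The means were 7931 ± 1345 and 5884 ± 1350 CPM, and Myl3 fell by 0.61 ± 0.17 on the log2 scale (edgeR adjusted p = 0.0211). Tnni3 had a log2 change of -0.37 (adjusted p = 0.0558), Csrp3 of -0.43 (0.0524) and Tnnt2 of -0.31 (0.102), and none of them was called. The background for RedOakFlame was higher, with 12% of all genes called. Myl3 was not called without RedOakFlame replicate 2 (log2 change -0.48, adjusted p = 0.0633) or without saline replicate 1 (-0.51, 0.0776). DESeq2 called 6 members for RedOakFlame and 4 for PeatSmolder, Myl4 and Myl7 among them. Myl2 was called for RedOakFlame without any 1 heart, and 4 members were called without saline replicate 3 or without saline replicate 5. The 12% is the share in the main edgeR fit. No share of all genes is given beside the DESeq2 and leave-out counts, so they cannot be set against a background.

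**Figure D3:**
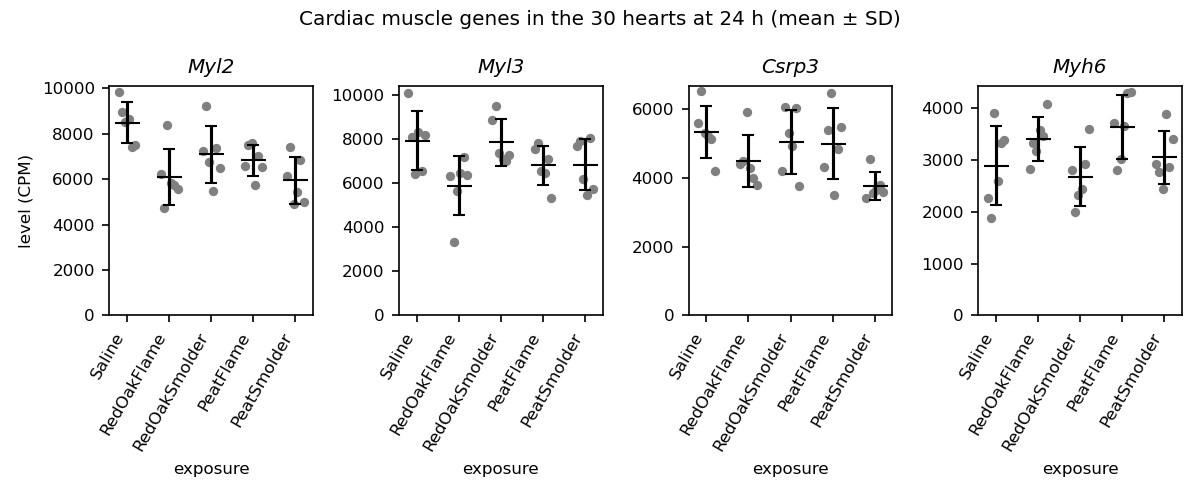
CPM of Myl2, Myl3, Csrp3 and Myh6 in each heart (grey points, 6 per exposure, in replicate order) with the mean and SD in black, on linear axes from 0. For Myl2 all PeatSmolder hearts lie below all saline hearts, while the Myh6 values of all 5 groups overlap.

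For PeatFlame 0.0447% of all genes were called and no member was. By edgeR 1303 genes had an unadjusted p under 0.05, among them 3 members, and Myl2 had a log2 change of -0.42 ± 0.16 (adjusted p = 0.347). DESeq2 called 1 member, Myl7. For RedOakSmolder 0% of all genes were called. By edgeR 700 genes had an unadjusted p under 0.05, among them 0 members, and DESeq2 also called none. Between the 2 flaming and the 2 smoldering smokes 0.0358% of all genes were called and no member was. The member with the smallest p there was Myh6, with a log2 difference of 0.26 ± 0.10 (adjusted p = 0.175). Across the 5 groups together 6.85% of all genes were called, and of the members Myl2 (adjusted p = 0.0216) and Csrp3 (0.029) were.

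The heart results moved with other measures of the same libraries. Without the 7 hearts of high Myl7, no member was called for PeatSmolder (Myl2 -0.54, adjusted p = 0.106; Csrp3 -0.59, 0.0982) and only Myl2 was called for RedOakFlame (-0.58, 0.0203; Myl3 -0.48, 0.0538). Across the 5 groups none was called. The summed level of 8 endothelial markers was 231 to 333 CPM in the saline hearts, 358 to 503 CPM in the PeatSmolder hearts and 421 to 539 CPM in the RedOakFlame hearts, and these ranges do not overlap those of saline. Of those 8 markers, 2 rose for PeatSmolder (Kdr and Cdh5) and 4 for RedOakFlame (Kdr, Tie1, Pecam1 and Cdh5, the last only just, at an adjusted p that rounds to 0.05), and none was at 0 throughout. Their part in the result was not tested. Hearts with more detected genes had less Myl2 (r = -0.68, rho = -0.64, permutation p = 1e-05, the smallest that the permutations can give, and r = -0.56 without the 2 farthest hearts). For Myl3 r was -0.75 (rho = -0.65, permutation p = 2e-05, and -0.57 without the 2 farthest). The adjusted p over the 14 relations with detected genes and total counts was 0.00014 for both.

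Among the other lists, in PeatSmolder hearts (4.29% of all genes called) lower levels were called for 2 of 20 sarcomere and Z-disc genes (Cryab, a small heat shock protein, and Myoz2, a calcineurin-binding Z-disc protein), 2 of 13 calcium handling genes (Trdn and Srl) and 1 of 11 energy genes (Cox7a1, a muscle subunit of cytochrome oxidase). No atrial gene was called there, while all 12 had a log2 change above 0 with a median of 0.87, against 0.0007 over all genes. PeatSmolder replicates 3 and 4 were in the high set of Myl7, and no saline heart was. Mybphl, Dkk3, Stard10, Pam and Nppa of this list were among the genes most like Myl4 and Myl7 over the hearts. The part of those replicates in the median was not tested. Of the 11 smooth muscle markers 1 rose, Actg2 by 3.602 on the log2 scale (adjusted p = 0.0329). In RedOakFlame hearts (12% of all genes called) Cryab fell by 0.38 on the log2 scale, S100a1, a calcium-binding regulator, fell by 0.61, and Cox7a1 fell by 1.02 ± 0.20. Fabp3, the fatty acid carrier of muscle, and Acadm, an enzyme of fatty acid oxidation, also fell, so that 3 of 11 energy genes were lower. Of the atrial list 2 of 12 rose, the transcription factor genes Nr2f2 and Nr2f1. In the same hearts 2 of 11 smooth muscle markers rose, Myh11 and Actg2, and 1 of 4 macrophage and neutrophil markers, Cd68 by 0.73 (adjusted p = 0.0341). Of the remaining lists no gene was called in either comparison.

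Over the 30 hearts the 7 genes other than Myl4 and Myl7 formed 21 pairs, of which 6 had an adjusted p under 0.05 by permutation. Myl3 varied with Tnni3 (r = 0.79, rho = 0.68, permutation p = 1e-05, adjusted p = 0.00021, and r = 0.63 without the 2 farthest hearts). Myl2 varied with Csrp3 (r = 0.72, rho = 0.74, permutation p = 2e-05, adjusted 0.00021, and r = 0.76 without 2) and with Myl3 (r = 0.64, rho = 0.62, permutation p = 7e-05, adjusted 0.00049, and 0.51 without 2). Tnni3 and Tnnt2 had r = 0.54 (rho = 0.43, permutation p = 0.00238, adjusted 0.0125), which dropped to 0.31 without 2 hearts and so rested in part on them. Pairs with opposite variation were Tnnt2 and Csrp3 (r = -0.51, rho = -0.52, permutation p = 0.00447) and Myl3 and Myh6 (r = -0.50, rho = -0.56, permutation p = 0.00425), each with an adjusted p of 0.0156. The 12 genes most like the mean of Myl2, Myl3, Tnni3, Tnnt2 and Myh6 were led by Eci1 (r = 0.82) and Acat1 (0.80) of mitochondrial fat and ketone metabolism, followed by Ech1 (0.73), Smco1 (0.73) and Uqcrc2 (0.70), and included Cyc1, Fh1 and Pln.

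In the lung the 9 genes were present in every group, but levels of a gene differed widely between animals with the same treatment. In the 6 saline lungs at 4 h Myl4 ran from 50.2 to 314 CPM (median 129.1) and Myl7 from 25.7 to 132.4 CPM (median 89.4). In the 6 saline lungs at 24 h Myl4 had 325, 156, 151, 325, 238 and 128.998 CPM, and Myl7 had 126.3, 14.2, 41.3, 59.6, 125.1 and 69.1 CPM. Between saline lungs at 24 h and at 4 h 0% of all 14458 genes tested were called, and no member was. Time and plate largely coincided in the saline lungs, with all 6 on plate 1 at 4 h and 5 of 6 on plate 2 at 24 h.

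By median, Myl4 was highest in EucalyptusFlame lungs at 4 h (438 CPM, 115.4 to 805), EucalyptusSmolder lungs at 4 h (314 CPM, 175 to 556) and PineNeedlesFlame lungs at 4 h (272 CPM, 178 to 473). It was lowest at 24 h, in the RedOakSmolder (60.5 CPM, 18.1 to 169), EucalyptusSmolder (53.1 CPM, 11.96 to 120.7) and LPS lungs (40.4 CPM, 28.1 to 44.2). The other 18 groups had medians between these, and the ranges of neighbouring groups in the order overlapped. Myl7 was likewise highest in EucalyptusSmolder (212 CPM, 70.8 to 405) and EucalyptusFlame lungs (161 CPM, 40.3 to 482) at 4 h and lowest in EucalyptusSmolder (22.1 CPM, 0 to 61.5) and LPS lungs (6.81 CPM, 5.98 to 10.1) at 24 h. Tnni3 medians ran from 80.9 CPM in EucalyptusSmolder lungs at 4 h to 7.68 CPM in LPS lungs at 24 h. The EucalyptusFlame lungs at 4 h had the highest median of Tnnt2 (118.8 CPM), Actc1 (353 CPM), Myh6 (114.1 CPM) and Csrp3 (213.0 CPM). The lowest median of Myh6 (12.7 CPM) and Csrp3 (21.6 CPM) was in the LPS lungs at 24 h, that of Tnnt2 (18.6 CPM) in the RedOakSmolder lungs at 24 h, and that of Actc1 (59.5 CPM) in the LPS lungs at 4 h. Myl3 medians were 1.23 to 6.48 CPM and Myl2 medians 0.144 to 1.40 CPM, too few counts to order the groups.

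**Figure D4:**
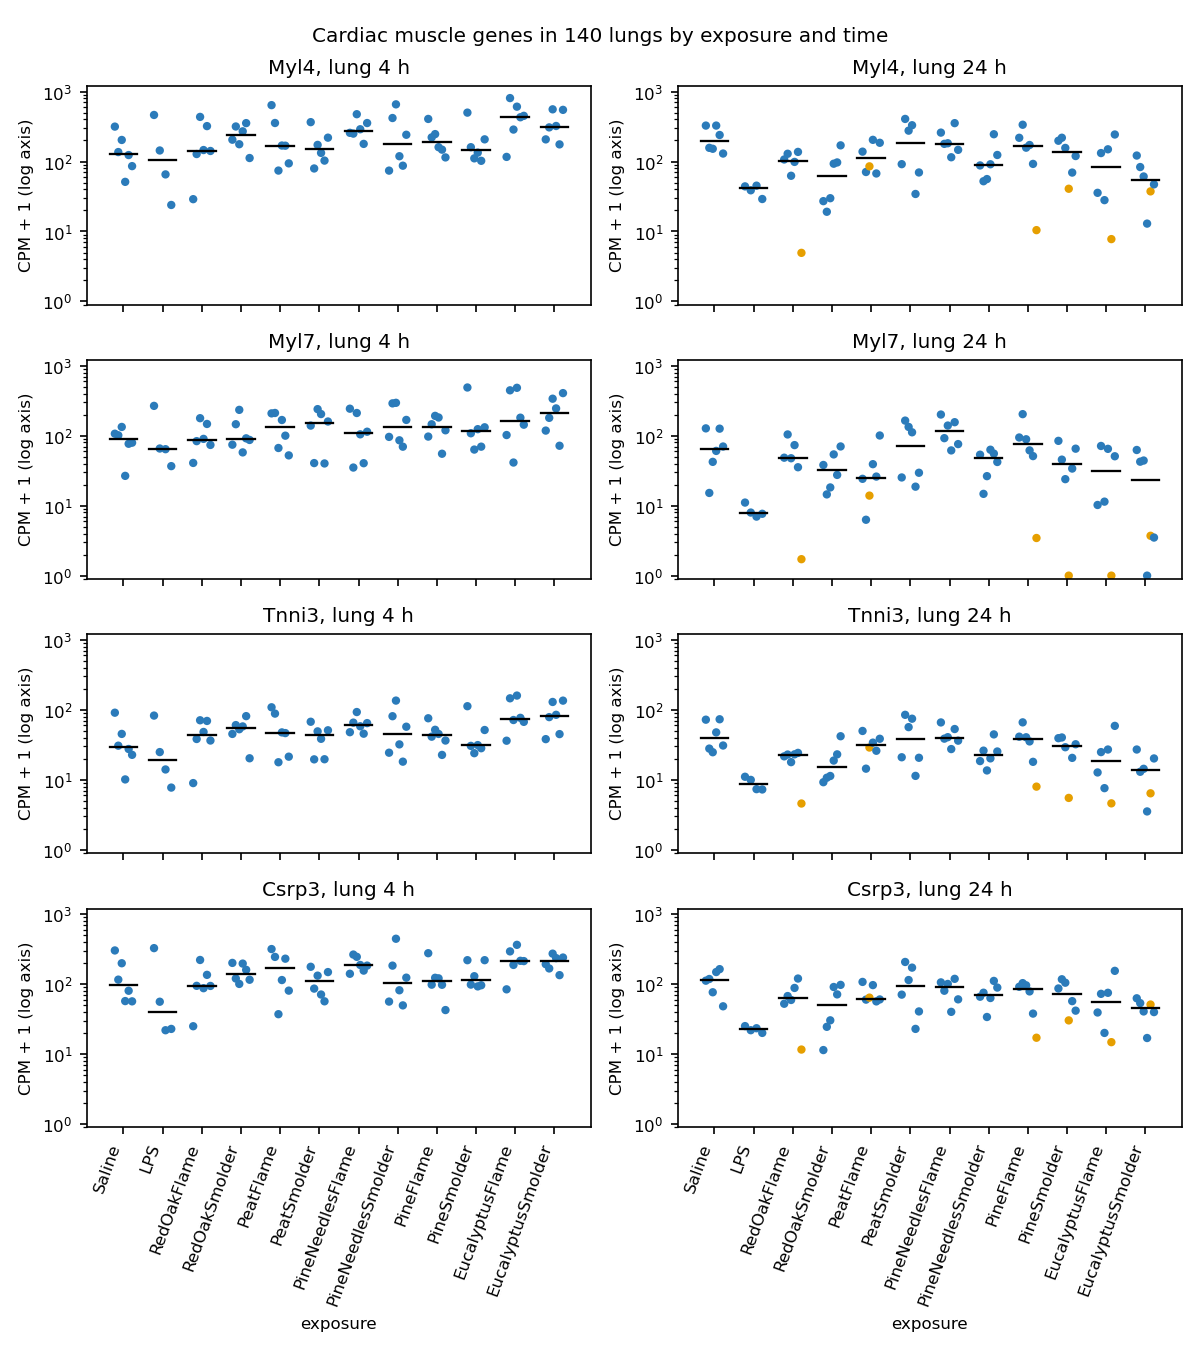
Levels of Myl4, Myl7, Tnni3 and Csrp3 as CPM + 1 on a log axis in 140 lungs by exposure, 4 h on the left and 24 h on the right, with medians as bars and the 6 libraries of fewer than 13000 detected genes in orange. The 4 LPS lungs at 24 h lie low and close together, while most other groups spread widely and overlap saline.

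LPS lungs at 24 h had lower levels of 5 members. Myl7, Myl4, Tnni3, Myh6 and Csrp3 fell between 4.34-fold and 7.94-fold, and all 4 LPS lungs lay below all 6 saline lungs for each of them. LPS called 12.1% of all genes at this time, and the share of all genes without overlap is not given here. The median log2 change was -2.12 over the 9 members and -0.124 over all genes.

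Myl7 had 10.1, 6.97, 5.98 and 6.66 CPM in the LPS lungs, a mean of 7.42 ± 1.82 against 72.6 ± 45.2 CPM in saline lungs (SD, n = 4 and 6). The log2 change was -2.99 ± 0.83 (edgeR adjusted p = 7.29e-03). Myl4 had 43.1, 37.8, 44.2 and 28.1 CPM, a mean of 38.3 ± 7.34 against 221 ± 89.03 CPM, and fell by 2.27 ± 0.68 on the log2 scale (adjusted p = 0.0145). Tnni3 fell by 2.24 ± 0.61 (7.93 ± 1.90 against 45.2 ± 22.2 CPM, adjusted p = 5.28e-03). Csrp3 fell by 2.12 ± 0.60 (21.6 ± 2.14 against 110 ± 43.3 CPM, adjusted p = 8.6e-03). Myh6 fell by 2.24 ± 0.76 (12.2 ± 1.61 against 68.6 ± 29.3 CPM, adjusted p = 0.0349). The spread between the 4 LPS lungs was small beside that between the saline lungs.

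The other 4 members were not called. Actc1 had a log2 change of -1.88 ± 0.67 (adjusted p = 0.0502), Tnnt2 of -1.81 ± 0.89 (0.199), Myl3 of -1.47 ± 0.68 (0.161) and Myl2 of -1.01 ± 1.05 (0.625). All 4 LPS lungs lay below all saline lungs for Actc1 and Tnnt2 as well, and 3 of 4 did for Myl3 and Myl2. Myl2 had 0 to 0.579 CPM in the LPS lungs, near the counting limit. How many of all genes separated the groups in this way is not given here, so the order adds nothing to the test. One Actc1 probe was called alone (-2.67 ± 0.63, adjusted p = 0.001) and the other was not (-1.56, 0.251). Without LPS replicate 4 only 3 members were called, with Myl4 at an adjusted p of 0.0521 and Myh6 at 0.0919.

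Markers of muscle and of other cell types also changed in the LPS lungs at 24 h, some of them lower and some higher. Of 19 other sarcomere and Z-disc genes 3 fell, Actn2 by 2.13, Nexn by 1.06 and Myh7 by 1.06 on the log2 scale. Of 11 calcium handling genes 2 fell, Ryr2, the calcium release channel of cardiac muscle, by 2.05 and Trdn, its partner triadin, by 2.14. Of 10 energy genes 6 fell, among them Fabp3 by 2.45, Eno3 by 1.45, Ldhb by 1.24 and Acadm by 0.99. Of the atrial list Pam and Stard10 fell by 1.18 and 0.79, and Clu rose by 1.04. Smooth muscle markers fell in 4 of 11 cases, with Cnn1 at -1.91 and Myl9 at -1.21 and a summed level of 482 to 765 CPM against 1069 to 2247 CPM in saline lungs. Airway epithelial markers fell in 4 of 7 cases, with Scgb3a2 at -3.04 and sums of 7453 to 19850 against 23657 to 50541 CPM. Macrophage and neutrophil markers rose in 6 of 8 cases (Retnlg by 4.08), with sums of 652 to 1169 against 292 to 1315 CPM. The members' own sum was 149 to 195 CPM against 439 to 1194 CPM. Among the fat cell markers 2 of 6 fell (Cfd by 6.16 and Cidec by 3.07), as did 1 of 8 endothelial markers (Emcn by 1.29), 1 of 7 mesothelial markers (Upk3b by 1.94), 1 of 8 ventricular and conduction genes (Hcn4 by 5.65) and 1 of 12 cardiac transcription factor genes (Gata6 by 0.76). Higher were 1 of 10 skeletal muscle markers (Myh4 by 3.68, sums of 46.8 to 103.9 against 33.9 to 84.3 CPM), 1 of 4 thymus markers (Lck by 1.20) and 2 of 3 pancreas markers (Pnlip by 5.31 and Try4 by 3.28, sums of 0 to 22.98 against 0 to 0.653 CPM). Several of these were near the counting limit. Cfd and Hcn4 had means of 0 CPM in LPS lungs against 1.29 ± 1.55 and 0.864 ± 0.736 CPM in saline lungs (SD). For both, 0 LPS lungs lay below every saline lung. Pnlip, Try4 and Myh4 had 1.19 ± 2.25, 1.57 ± 3.15 and 1.64 ± 2.90 CPM in LPS lungs. Of those 4 lungs, 2, 1 and 2 lay above every saline lung. Of 9 alveolar and 5 erythroid markers none was called. The part of these cell types in the result was not tested.

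At 4 h LPS called 8.98% of all genes and none of the members (adjusted p of at least 0.78). By edgeR 0 of the 9 members and 2888 of all 14458 genes had an unadjusted p under 0.05 there, and DESeq2 called no member. The 4 LPS lungs had 462, 143, 64.4 and 22.9 CPM of Myl4, a wider spread than at 24 h. Without LPS replicate 1, the lung with 462 CPM, Actc1 and Csrp3 were called lower. The LPS change at 24 h minus that at 4 h was tested as an interaction, for which 0.581% of all genes and no member were called. Myl7 had -3.41 ± 1.07 (adjusted p = 0.141) and Myl4 -2.54 (0.247), so that the change at 24 h was not shown to differ from that at 4 h.

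None of the 10 smokes had a member called in lung, at either time. All comparisons of a time share its 6 saline lungs. At 4 h the share of all genes called was 0.0138% for RedOakFlame, 0.297% for PeatFlame, 0.0277% for PineNeedlesFlame, 0.00692% for PineFlame and 0.0899% for EucalyptusFlame. For the smoldering smokes it was 0% for RedOakSmolder, 0% for PeatSmolder, 0.0207% for PineNeedlesSmolder, 0% for PineSmolder and 0% for EucalyptusSmolder. At 24 h it was 1.75% for RedOakFlame, 0.0692% for PeatFlame, 0.00692% for PineNeedlesFlame, 0% for PineFlame and 0.00692% for EucalyptusFlame. For the smoldering smokes at 24 h it was 0.00692% for RedOakSmolder, 0.00692% for PeatSmolder, 0.0207% for PineNeedlesSmolder, 0% for PineSmolder and 0% for EucalyptusSmolder. A count of 0 among 9 members is therefore what the background gives in nearly all of these comparisons.

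By edgeR the number of members with an unadjusted p under 0.05 at 4 h was 4 for EucalyptusFlame, 2 for EucalyptusSmolder, 1 for PineNeedlesFlame, 1 for PeatFlame and 0 for the other smokes. At 24 h it was 6 for RedOakSmolder, 4 for EucalyptusSmolder, 3 for RedOakFlame, 2 for EucalyptusFlame, 1 for PineFlame, 1 for PineNeedlesFlame and 0 for the rest. DESeq2 called 1 member, for PeatFlame at 4 h. The median log2 change over the members at 4 h was 0.93 for EucalyptusFlame, 0.75 for PineNeedlesFlame, 0.52 for EucalyptusSmolder and 0.43 for PeatFlame. At 24 h it was -1.38 for RedOakSmolder, -0.91 for EucalyptusFlame, -0.90 for EucalyptusSmolder, -0.73 for PineNeedlesSmolder, -0.63 for PineFlame and -0.56 for RedOakFlame.

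The clearest values at 4 h were in the EucalyptusFlame lungs. Myl4 had 115.4, 805, 285, 607, 428 and 448 CPM there, a mean of 448 ± 241 against 152 ± 94.7 CPM in saline, and 4 of 6 lay above every saline lung. The log2 change was 1.48 ± 0.57 (edgeR adjusted p = 0.382). Tnni3 had 1.23 ± 0.50 (adjusted p = 0.414) and Myl7 1.32 ± 0.65. At 24 h the RedOakSmolder lungs had 71.7 ± 58.8 CPM of Myl4 against 221 ± 89.03 CPM in saline, 5 of 6 lay below every saline lung, and the log2 change was -1.73 ± 0.58 (adjusted p = 0.361). Myh6 in the same lungs had a log2 change of -1.98 ± 0.64 (20.3 ± 15.3 against 68.6 ± 29.3 CPM, adjusted p = 0.361) and Tnnt2 of -2.26 ± 0.78. All 6 EucalyptusSmolder lungs at 24 h lay below every saline lung for Myl4 (59.6 ± 38.04 CPM, log2 change -1.80 ± 0.58, adjusted p = 0.58), and 5 of 6 did for Tnni3 (-1.63 ± 0.51, 0.549). None of these passed the test.

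For 3 smokes, every lung lay above the saline mean of log2(CPM + 1) at 4 h and every lung below it at 24 h for at least 1 member (Myl4, Tnni3 and Csrp3 for EucalyptusSmolder, Tnnt2 and Myh6 for PineNeedlesFlame, Myh6 for RedOakSmolder). The difference of the changes at 24 h and 4 h was tested as an interaction, which called 0.0138% of all genes for EucalyptusSmolder, 0.567% for PineNeedlesFlame and 0% for RedOakSmolder, and no member for any of them.

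Tests over several groups at once gave more calls. At 24 h, 30.3% of all genes differed somewhere among the 12 lung groups, and 5 of the 9 members did: Myl7 (edgeR adjusted p = 0.00744), Tnni3 (0.00877), Tnnt2 (0.0133), Myl4 (0.0218) and Myh6 (0.0298). In a fit of the 24 h lungs alone 1 member was called. At 4 h, 6.08% of all genes and 1 member differed, Myl2 (adjusted p = 1.32e-05). Between the 5 flaming and the 5 smoldering smokes at 4 h 2.39% of all genes were called, and again Myl2 was the only member (log2 difference 1.41 ± 0.39, adjusted p = 0.0304). Its levels there were 1.71 ± 5.04 CPM after flaming and 0.506 ± 0.384 CPM after smoldering smokes (SD over libraries). A single lung, PeatFlame replicate 2 with 28.3 CPM of Myl2, stood above all others. Without it the difference was 0.94 with an adjusted p of 0.14, and the adjusted p among the 12 groups was 0.869. Without the plate term the flaming minus smoldering difference was 1.14 (adjusted p = 0.0924). At 24 h, 0.111% of all genes and no member were called between flaming and smoldering smokes.

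Over the 140 lungs the members varied together to different degrees. Of the 36 pairs, 29 had an adjusted p under 0.05 by permutation, and the median r of log2(CPM + 1) was 0.499. Members share a library, and so also its depth and its mix of tissue. The closest pair was Myl4 and Tnni3 (r = 0.95, rho = 0.96, permutation p = 1e-05, the smallest the permutations can give, adjusted p = 1.5e-05, and r = 0.95 without the 2 farthest lungs). For that pair r was 0.96 at 4 h, 0.93 at 24 h, 0.96 on plate 1 and 0.94 on plate 2. Myl4 with Csrp3 and Tnni3 with Csrp3 had r = 0.91, and Actc1 with Myh6 and Tnnt2 with Actc1 had r = 0.88. Myl2 had r of -0.20 to 0.26 with the other members, at a median of 4 counts per library. The median r over all pairs was 0.631 at 4 h and 0.332 at 24 h, 0.620 on plate 1 and 0.343 on plate 2, and 0.403 for deviations from the group mean.

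The 2 atrial light chains and troponin T differed in how they followed library quality. Myl7 and Tnnt2 had r = 0.08 over all lungs (rho = 0.25, permutation p = 0.322 for r), 0.46 at 4 h and -0.16 at 24 h. Lungs with more detected genes had more Myl7 (r = 0.74, rho = 0.60, permutation p = 1e-05, 0.70 without the 2 farthest lungs, 0.45 at 4 h and 0.79 at 24 h). For Tnnt2 the relation had the opposite sign (r = -0.43, rho = -0.27, permutation p = 1e-05, -0.41 without 2, -0.34 at 4 h and -0.58 at 24 h). Myl4 had r = 0.51 over all lungs and 0.014 at 4 h. Without the 6 libraries of few detected genes, Myl7 and Tnnt2 had r = 0.34, and the median over the 36 pairs was 0.624. The number of detected genes thus moved with the levels of Myl7 and Tnnt2 in opposite directions, and its part in the group differences was not tested.

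**Figure D5:**
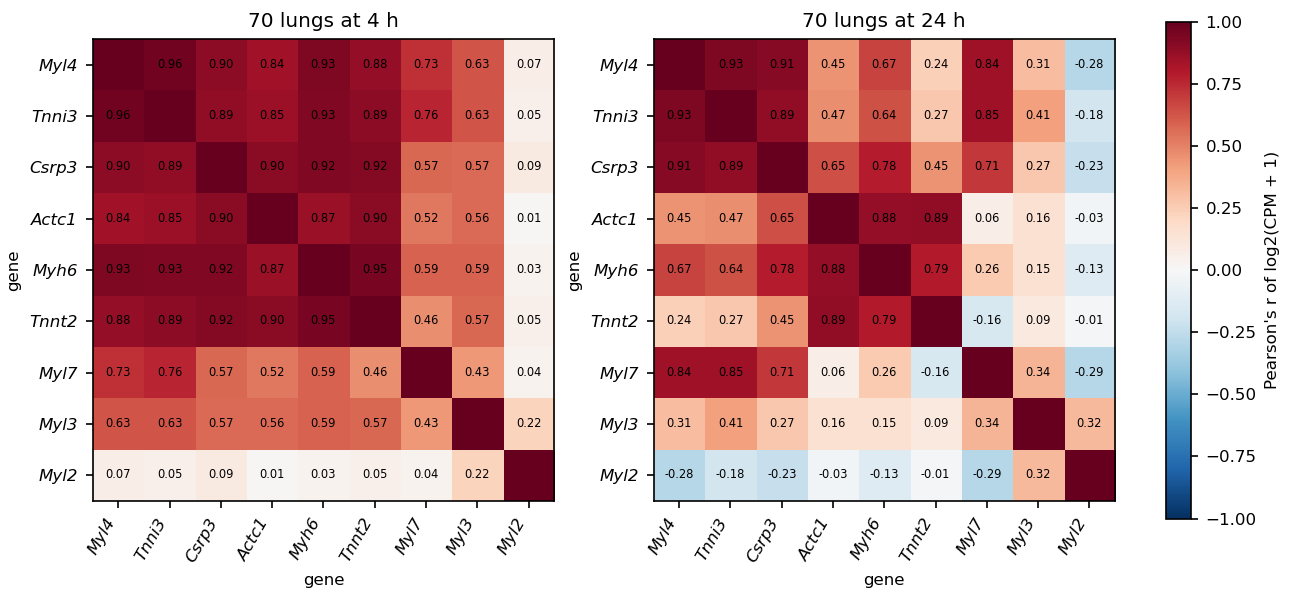
Pearson r of log2(CPM + 1) between the 9 genes over the 70 lungs at 4 h (left) and the 70 lungs at 24 h (right), with the value in each cell. Myl4, Tnni3 and Csrp3 form a block of high r at both times, and the r of Myl7 with Tnnt2 is 0.46 at 4 h and -0.16 at 24 h.

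The 12 genes with the profile most like the mean of the members over the 140 lungs, among 13257 ranked, were Ryr2 (r = 0.91), Ckmt2 (0.91), Hfe2 (0.89), Myoz2 (0.89), Ttn (0.88), Myom2 (0.88), Lmod2 (0.87), Eno3 (0.87), Tnnc1 (0.87), Nrap (0.86), Lmod3 (0.86) and Adprhl1 (0.86). Ryr2 encodes the calcium release channel of cardiac muscle, Ckmt2 the mitochondrial creatine kinase of striated muscle, and Ttn and Myom2 the giant protein titin and the M-band protein myomesin. Ryr2 had a median of 18.3 CPM in lung and 1280 CPM in heart. The r values come from libraries that share depth and tissue mix and are a description.

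The level of a gene in the lung said little about its level in the heart of the same animal. Over the 30 animals with both organs, the 7 genes other than Myl4 and Myl7 had r of -0.06 to 0.17 between lung and heart. None of the 7 had an adjusted p under 0.05 by permutation, and the smallest unadjusted permutation p was 0.362.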

How the data were processed

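Gene expression was measured in 140 lung and 30 heart libraries by TempO-Seq, in which probe pairs joined on their target RNA are sequenced, per the labels. The labels also name a 3' mRNA library kit and single-end 50 bp reads. The authors deposited 1 table of counts of reads per probe, whole numbers with no normalization, of which 785 rows were 0 throughout. Bowtie and DESeq2 are listed in the submitters' processing notes. Versions, settings and the genome build were not given in the sources used here. Probes of a symbol were summed, so a gene's level depends on its number of probes and their efficiency.

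Levels are CPM of library totals. Differences were tested with edgeR 4.0.16 in R 4.3.3 (TMM, filterByExpr, robust quasi-likelihood F test, Benjamini-Hochberg over all genes of a contrast, called under 0.05), in 1 fit of all lungs with group and plate, 1 fit of all hearts with group, and 1 fit of the saline hearts and lungs. TMM factors were 0.25 to 1.17 in lung, 0.868 to 1.17 in heart and 0.723 to 1.49 in the fit of both organs. They enter the log2 differences but not the CPM, so fitted folds need not equal ratios of the CPM printed. The 6 lungs with fewer than 13000 detected genes stayed in. For no comparison is the share of all genes without overlap between the groups given, so separations of members are a description only. Standard errors were taken as the size of a log2 change over the root of its F. Correlations and ratios used a pseudocount of 1 CPM, scipy 1.17.1 and 100000 permutations. Alternatives were DESeq2 1.42.0 and its size factors, no filter on low counts, no plate term, each time alone, single probes, and leaving out libraries. The procedure was tested on simulated data. The limit given for a count of 0 covers counting error only, while SDs and standard errors include the variation between animals.

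The members and gene lists were chosen with earlier results of these data known. All members are named. From another list at most 4 called genes per contrast with the smallest p are named, and the genes most alike are the 12 with the highest r. Kdr, Tie1, Pecam1, Cdh5, Bmp10, Irx4, Nkx2-5, Tbx5, Sftpc, Pln, Myh2 and Myh4 are named as markers from the lists. Heart and lung of 1 animal were paired by the animal number in the title. Each library is a separate animal or organ by its title. No library or column was left out, and no unmatched column was present (0).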

Additional observations from a re-analysis of the deposited data

Results flagged for a closer look

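In each group of 4 or 6 libraries the highest and the lowest value of every member was compared with the others by Dixon's rule. Of 261 groups checked 28 held such a value, and chance flags about 1 in 20 groups. Several of the same libraries return from gene to gene, and no cause is weighed here.

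In heart, RedOakFlame replicate 2 was far above the other 5 hearts for Myl4 (5791 CPM, others 7.13 to 11.5) and Myl7 (4908 CPM, others at most 5.08), and far below them for Myl3 (3322 CPM, others 5639 to 7207). RedOakSmolder replicate 4 was far above for Myl4 (786 CPM, others 7.32 to 11.7) and Myl7 (1043 CPM, others 1.22 to 5.92). PeatSmolder replicate 2 was above the others for Csrp3 (4554 CPM, others 3434 to 3810).

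In lung at 24 h, RedOakFlame replicate 6, the library with the fewest detected genes, was low for Myl4 (3.95 CPM, others 61.5 to 136.2), Myl7 (0.718 CPM, others 34.4 to 103.2), Tnni3 (3.59 CPM, others 16.9 to 23.3) and Csrp3 (10.6 CPM, others 51.3 to 118.97), and high for Myl2 (2.15 CPM, others 0.143 to 0.568). PineFlame replicate 6 was low for Myl4 (9.45 CPM, others 91.4 to 334) and Myl7 (2.45 CPM, others 50.1 to 202) and high for Myl2 (3.85 CPM, others 0.398 to 1.13). PineSmolder replicate 4 was low for Myl7 (0 CPM, others 22.9 to 83.4) and Tnni3 (4.52 CPM, others 19.6 to 39.3). These 3 are among the 6 libraries with fewer than 13000 detected genes. Outside those, EucalyptusSmolder replicate 4 was low for Csrp3 (15.9 CPM, others 38.8 to 61.6), PineFlame replicate 5 was low for Tnnt2 (20.5 CPM, others 34.8 to 43.7), and Myl2 was high in saline replicate 6 (2.56 CPM, others 0.484 to 0.816) and PeatSmolder replicate 6 (1.69 CPM, others 0.302 to 0.595).

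In lung at 4 h, PeatFlame replicate 2 had 28.3 CPM of Myl2 (others 0.529 to 1.96), while RedOakSmolder replicate 2 had 0 CPM (others 0.308 to 0.476), which is near the counting limit. EucalyptusFlame replicate 1 was low for Tnnt2 (30.2 CPM, others 88.99 to 144) and Myh6 (27.3 CPM, others 99.1 to 161). RedOakFlame replicate 1 was low for Tnni3 (7.99 CPM, others 35.5 to 70.1) and saline replicate 4 for Myl7 (25.7 CPM, others 75.7 to 132.4). PineSmolder replicate 1 was high for Myl7 (487 CPM, others 62.4 to 130.9) and PineFlame replicate 1 for Tnnt2 (145 CPM, others 22.7 to 45.2).

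For 6 pairs of a member and a smoke, every lung lay above the saline mean of log2(CPM + 1) at 4 h and every lung below it at 24 h. After EucalyptusSmolder the mean log2 difference from saline was 1.31 at 4 h and -2.07 at 24 h for Myl4, 1.33 and -1.86 for Tnni3, and 0.87 and -1.33 for Csrp3. After PineNeedlesFlame it was 1.16 and -1.13 for Tnnt2 and 1.28 and -0.94 for Myh6. After RedOakSmolder it was 0.62 and -1.95 for Myh6. The difference between the times was tested as an interaction in edgeR with the plate term, and none was called. The interaction was -2.88 ± 0.81 (adjusted p = 0.223) for Myl4, -2.68 ± 0.71 (0.172) for Tnni3 and -1.66 ± 0.70 (0.603) for Csrp3 after EucalyptusSmolder. It was -2.57 ± 1.07 (0.0909) for Tnnt2 and -2.12 ± 0.88 (0.0906) for Myh6 after PineNeedlesFlame, and -2.08 ± 0.88 (0.895) for Myh6 after RedOakSmolder. Plate and time nearly coincided in these groups.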

How the results depend on the processing

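Counts of members called stayed within 1.5 times their value in 197 combinations of a comparison and a setting fixed at the outset and left it in 8. The 8 were DESeq2 for PeatFlame hearts (1), PeatSmolder hearts (4), RedOakFlame hearts (6) and PeatFlame lungs at 4 h (1), the last also without the libraries of few detected genes (1) and in a fit of that time alone (1), the 24 h lungs alone for any difference among 12 groups (1), and no plate term for flaming against smoldering lungs at 4 h (0). With 1 library left out, the counts ran from 1 to 2 for PeatSmolder hearts, 1 to 4 for RedOakFlame hearts, 0 to 2 for any difference among hearts, 3 to 6 for LPS lungs at 24 h and 0 to 2 for LPS lungs at 4 h. Any difference among hearts gave 0 without saline replicate 1, and 1 when saline replicate 2 or 4 was left out, or PeatSmolder replicate 1, 3, 4 or 6, and RedOakFlame gave 1 without saline replicate 1 or RedOakFlame replicate 2. Alternatives chosen after seeing the data gave 0 for PeatSmolder, 1 for RedOakFlame and 0 for any difference without the 7 hearts of high Myl7, and 0 for flaming against smoldering and 0 for any difference at 4 h without PeatFlame replicate 2. The share of all genes called under each of these settings is not given beside the counts. No called single gene change reversed. The uncalled changes of Myl4 and Myl7 in the 4 smoke groups of hearts, all above 0, were below 0 without the 7 hearts (-0.24 to -0.98 for Myl4 and -0.53 to -0.96 for Myl7). A fall was fixed by the choice of those hearts, which were picked by their high Myl7. Under those settings 7 single gene values lost their call, and with a library left out 140 kept it and 13 lost it, 6 of them Myh6 in LPS lungs at 24 h. With the animal as a replicate block, 9 of 9 members were called between heart and lung, and the Myl7 to Myl2 ratio had p = 0.0312 by exact sign flips, the smallest that 64 flips allow. That p was fixed in advance by the separation of both genes between the organs. The block changed no other call. In lung, Myl2 and Myl3 are limited by depth at medians of 4 and 21 counts.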
